A study of Mus musculus with 6 samples.

Results

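A group of 10 genes that restrain cytokine signalling was followed in stimulated CD4+ T cells. It comprised the whole family of suppressors of cytokine signalling (Cish and Socs1 to Socs7), the SUMO ligase gene Pias1 and the phosphatase gene Ptpn2. They were taken as listed symbols in the gene-name columns, and all 10 were found among the 35602 genes of the count table. The cells came from mouse spleen and were stimulated through CD3 and CD28 for 72 h with either the vehicle DMSO or MAPK13-IN-1, an inhibitor of the p38-type kinase MAPK13. For replicates 2 and 3 the labels place the addition of 17.1 µM inhibitor, or of 0.1 µl DMSO, after day 1, whereas the series text describes its presence during stimulation. The cells were isolated as CD4+ T cells from wild-type C57BL/6J mice, whose age was not given in the sources used here. The groups are called MAPK13-inhibitors and DMSO.

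Each group was represented by 3 libraries, but these were made in 2 ways. Replicates 2 and 3 shared 1 table of gene counts, which held 26874805 and 28487403 counts for DMSO against 33854760 and 32617702 for MAPK13-inhibitors. The replicate 1 pair was made with another library kit and was read as FPKM (fragment counts divided by transcript length and by depth). This unit was deduced from the numbers themselves, and the depth is unknown. This pair stood apart from the others in many of the results, and its values carry no test. Nothing in the labels states that the replicates came from separate animals, and p-values therefore measure the spread between these libraries, which may be technical.

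The libraries of the count table also held transcripts of B cells. The 12 B cell markers summed to 1159 and 1126 CPM (counts relative to the library total) with DMSO and to 1483 and 1482 CPM with MAPK13-inhibitors, and the most abundant of them by counts was Pax5. Of the 12, 8 were higher and 2 lower at an adjusted p of 0.05, beside 31.5% and 32.3% of all genes tested, and Fcer2a, 1 of the latter, fell by 1.00 on the log2 scale. Cd79a, a defining gene of this lineage, had 4667, 4613, 7156 and 6648 counts in the same order of libraries, and none of the 12 genes was at 0. With depth taken into account, the log2 change of Cd79a was 0.18 (adjusted p = 0.0185). The replicate 1 log2 ratios of Fcer2a and Cd79a were -1.21 and -0.69. The 8 matched of 9 CD4 T cell markers summed to 1705 and 1733 CPM with DMSO and to 1088 and 1195 CPM with MAPK13-inhibitors, led by Cd5. B cell marker counts thus equalled 67.9% and 65.0% of T cell marker counts in the DMSO libraries but 136% and 124% in the MAPK13-inhibitors libraries. The same share was 5.05% and 3.80% of summed FPKM in the replicate 1 pair. The T cell markers did not move as 1 block, since 6 of 8 fell, beside 32.3% of all genes tested, with Cd3e changing by -1.37 on the log2 scale (replicate 1 log2 ratio -0.09), while Cd4 gave 0.00 (adjusted p = 0.993; replicate 1 log2 ratio 0.31). Fcer2a, Cd79a, Cd3e and Cd4 were singled out after their values were seen. In bulk RNA, fewer cells of a type and less RNA per cell cannot be told apart.

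Markers of further lineages were sparse but moved with the groups as well. Macrophage markers summed to 12.0 and 10.5 CPM with DMSO against 42.5 and 34.6 CPM with MAPK13-inhibitors, led by Cd68, while Mrc1 was at 0 in both DMSO libraries. Dendritic cell markers likewise went from 17.5 and 17.4 CPM to 59.0 and 48.6 CPM, led by Zbtb46. Clec9a was at 0 in both DMSO libraries and in MAPK13-inhibitors replicate 3. Erythroid markers went from 7.52 and 7.20 CPM to 94.4 and 67.1 CPM. Hbb-bs led them except in DMSO replicate 3, where Klf1 was higher. Both CD8 T cell markers were lower, beside 32.3% of all genes tested, and their sum was 11.2 and 10.4 CPM with DMSO and 5.76 and 8.16 CPM with MAPK13-inhibitors, led by Cd8b1. Neutrophil markers summed to at most 0.827 CPM, and NK cell markers to at most 0.591 CPM. Calls are not counted for these sparse lists, apart from the CD8 genes, since some of their genes passed the filter on low counts only through the group where they were high. Replicate 1 had summed FPKM of 2.98 with DMSO and 9.33 with the inhibitor for macrophage markers, 3.08 and 13.2 for dendritic cell markers, and 0.931 and 1.94 for erythroid markers. Its CD8 T cell markers went the other way from the count table, at 3.49 and 8.39, and its neutrophil and NK cell markers stayed under 1, at 0.737 and 0.382 and at 0.0909 and 0.173. The part of these shifts in the values of the brake genes was not tested.

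Cytokines such as interleukin-2 bind receptors that carry JAK kinases, and these kinases phosphorylate STAT transcription factors, which enter the nucleus and switch on target genes. Cish, Socs1, Socs2 and Socs3 are themselves classic STAT targets, and their proteins act back on the receptor complex as a negative feedback loop. Each SOCS protein has an SH2 domain that docks on phosphotyrosine and a SOCS box that recruits a ubiquitin ligase, and Socs1 and Socs3 can also block JAK activity directly. Pias1 and Ptpn2 act further along the route, on STATs and on phosphorylated JAKs and STATs.

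Across all genes the contrast was broad. Of 16269 genes tested with edgeR's quasi-likelihood test, 10374 (63.8%) passed an adjusted p of 0.05, with 5252 (32.3%) lower and 5122 (31.5%) higher with MAPK13-inhibitors. All 10 brake genes passed the filter on low counts, 4 of them fell (Cish, Socs1, Socs2 and Ptpn2), 3 rose (Socs4, Socs6 and Pias1), and 3 did not pass the test (Socs3, Socs5 and Socs7). That 7 of 10 were called lies close to the share among all genes, and their median log2 fold change was -0.17 beside 0.01 for all genes tested. The groups did not overlap for 8 of the 10, as for 13510 (83%) of all genes tested, so this count says nothing particular about the brakes. In the replicate 1 pair, 9 of the 10 were higher with the inhibitor and Ptpn2 alone was lower, with a median log2 ratio of 0.14 for the brake genes and 0.07 for all genes tested. Only 4 of the 7 called brake genes (Socs4, Socs6, Pias1 and Ptpn2) had the same sign there, and of the 10193 called genes with a value in that pair 6714 (65.9%) did.

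**Figure D1:**
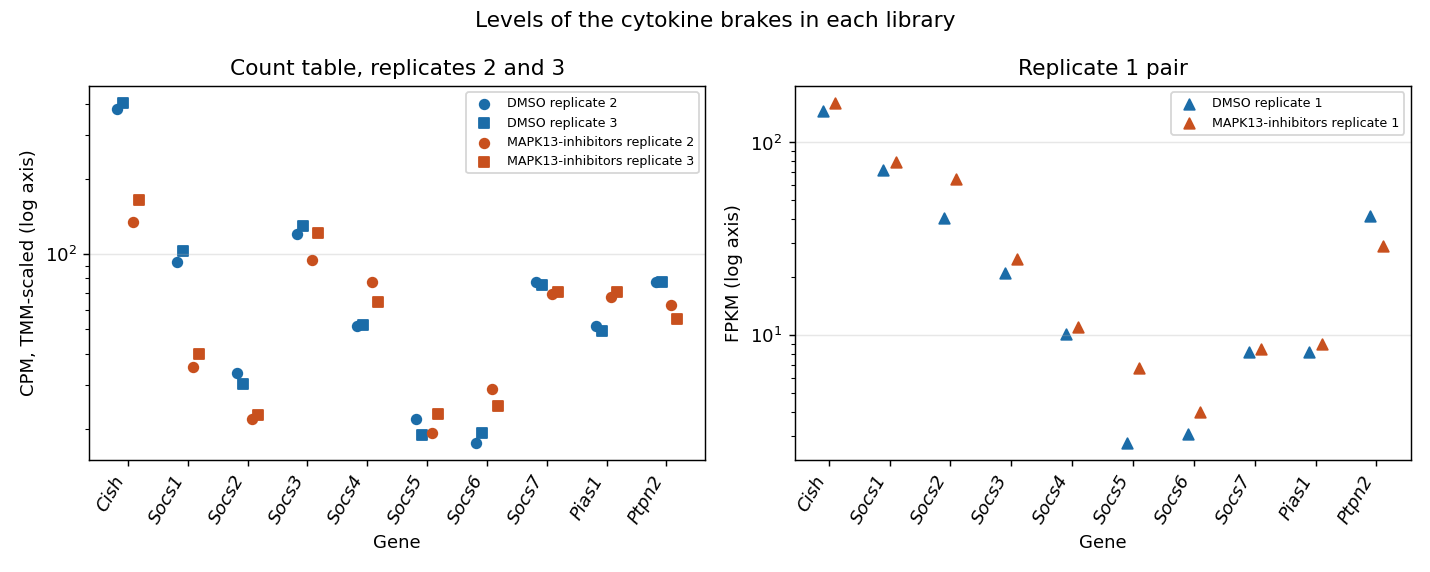
Level of each brake gene in every library, with TMM-scaled CPM on a log axis at left (replicates 2 and 3) and FPKM on a log axis at right (replicate 1), where each point is 1 library. Cish falls from 382 and 403 CPM to 135 and 165 CPM at left, but reads 146 and 161 FPKM at right.

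Cish, the suppressor most closely tied to interleukin-2 and STAT5 and a brake on T cell receptor signalling, was the most abundant family member per length in the DMSO libraries. It measured 382 and 403 CPM (here and from now on scaled by TMM, which corrects for library composition) in the DMSO libraries and 135 and 165 CPM in the MAPK13-inhibitors libraries. Both inhibitor libraries thus lay well below both vehicle libraries. The fitted change was -1.39 on the log2 scale (SE 0.08, 95% interval -1.58 to -1.20, adjusted p = 4.13e-07), or 2.62-fold lower. The replicate 1 pair did not share this fall, with 146 FPKM for DMSO and 161 FPKM for the inhibitor, a log2 ratio of 0.14. The gene overlaps the antisense genes Gm17040 and Gm17041 over up to 479 bp, or 7.46% of its exons, and because the use of strand in counting was not given in the sources used here, reads of these genes cannot be told apart.

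Socs1, which binds and inhibits JAK kinases and restrains interferon-gamma and common gamma-chain cytokine signals, fell by nearly the same factor as Cish in the count table. It measured 92.7 and 103 CPM with DMSO and 35.2 and 39.8 CPM with MAPK13-inhibitors, with no overlap between the groups. The fitted log2 change was -1.38 (SE 0.08, 95% interval -1.57 to -1.20, adjusted p = 3.88e-07), or 2.61-fold lower. The replicate 1 pair again showed no fall, with 71.9 FPKM for DMSO and 79.1 FPKM for the inhibitor, a log2 ratio of 0.14.

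Socs2, best known as a brake on growth hormone signalling and also induced by STAT5, fell less. Its level was 33.4 and 30.2 CPM with DMSO and 21.9 and 22.8 CPM with MAPK13-inhibitors. The groups were separate, and the log2 change was -0.51 (SE 0.09, 95% interval -0.72 to -0.31, adjusted p = 0.000718). The replicate 1 pair moved the other way, from 40.7 to 64.4 FPKM, a log2 ratio of 0.65.

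Socs3, the feedback inhibitor of gp130 receptors for interleukin-6 and related cytokines, did not pass the test. It measured 120 and 129 CPM with DMSO and 94.7 and 122 CPM with MAPK13-inhibitors, so that the groups overlapped through MAPK13-inhibitors replicate 3. The log2 change was -0.20 (SE 0.10, 95% interval -0.43 to 0.02, adjusted p = 0.101), and the replicate 1 pair read 21.1 and 24.8 FPKM, a log2 ratio of 0.23. The call changed with several settings. Socs3 was called lower with the replicate block (-0.21, adjusted p = 0.00457) and with no filter on low counts (-0.20, adjusted p = 0.0391). Under library totals it was not called (-0.079, adjusted p = 0.498). Its change was -0.40 without MAPK13-inhibitors replicate 3, -0.034 without MAPK13-inhibitors replicate 2 and -0.27 without DMSO replicate 2.

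Socs4 and Socs5 form a pair of related proteins with long amino-terminal regions that have been tied to the epidermal growth factor receptor. Socs4 measured 51.6 and 52.0 CPM with DMSO and 77.4 and 64.3 CPM with MAPK13-inhibitors. Both inhibitor libraries were higher, with a log2 change of 0.45 (SE 0.09, 95% interval 0.25 to 0.65, adjusted p = 0.00125), and the replicate 1 pair also read higher, at 10.1 and 11 FPKM. Socs5 measured 21.8 and 18.8 CPM with DMSO and 19.2 and 22.9 CPM with MAPK13-inhibitors. The groups of Socs5 overlapped, with a log2 change of 0.05 (95% interval -0.21 to 0.32, adjusted p = 0.716), although its replicate 1 values of 2.77 and 6.74 FPKM gave a log2 ratio of 1.04, the highest of the 10 genes in that pair.

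Socs6 and Socs7 form another pair of related proteins, which have been linked to receptor tyrosine kinase and insulin signalling. Socs6 had the lowest level per length of the family in the DMSO libraries of the count table and rose from 17.6 and 19.2 CPM with DMSO to 28.9 and 24.8 CPM with MAPK13-inhibitors. Its groups did not overlap, the log2 change was 0.54 (SE 0.11, 95% interval 0.30 to 0.78, adjusted p = 0.00134), and the replicate 1 pair read 3.07 and 4.01 FPKM. Socs7 measured 77.6 and 75.5 CPM with DMSO and 69.1 and 70.7 CPM with MAPK13-inhibitors. These values did not overlap, yet the log2 change of -0.13 (95% interval -0.27 to 0.01, adjusted p = 0.0982) missed the threshold. It was -0.15 without MAPK13-inhibitors replicate 3 and -0.0058 under library totals (adjusted p = 0.945). The replicate 1 pair of Socs7 read 8.12 and 8.44 FPKM.

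Pias1, a SUMO ligase that limits the DNA binding of activated STAT factors, was higher with the inhibitor in all 3 pairs. It measured 51.5 and 49.1 CPM with DMSO and 67.6 and 70.4 CPM with MAPK13-inhibitors, and 8.20 and 9.01 FPKM in the replicate 1 pair. Its log2 change was 0.46 (SE 0.07, 95% interval 0.30 to 0.61, adjusted p = 0.000231).

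Ptpn2, the T cell protein tyrosine phosphatase that removes phosphate from JAK1, JAK3 and STATs, was the one brake gene lower with the inhibitor in all 3 pairs. It measured 77.4 and 77.2 CPM with DMSO and 62.4 and 54.8 CPM with MAPK13-inhibitors, and 41.7 and 29.2 FPKM in the replicate 1 pair. The log2 change was -0.40 (SE 0.08, 95% interval -0.57 to -0.23, adjusted p = 0.00103), and the log2 ratio of the untested pair was -0.50.

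Because the summed T cell markers were lower with MAPK13-inhibitors, each brake gene was also related to this sum, as an alternative chosen after seeing the data. This scale moves every gene by about the same amount, with the median of all genes tested going from 0.01 to 0.73, so that it shifts signs but not the differences between genes. Cish equalled 21.5% and 22.2% of the summed T cell marker counts with DMSO and 13.0% and 14.4% with MAPK13-inhibitors, but 13.6% and 16.0% of summed FPKM in the replicate 1 pair. On this scale in the count table the log2 change was -0.68 for Cish and -0.67 for Socs1, and the other brakes lay between 0.21 (Socs2) and 1.27 (Socs6). Relative to library totals alone, the median of all genes moved from 0.01 to 0.14, and no called brake gene changed direction.

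Ratios of counts between 2 genes of the same library do not depend on scaling. Cish over Socs1 stayed near 4 in every library of the count table, at 4.13 and 3.92 with DMSO and 3.83 and 4.15 with MAPK13-inhibitors. In FPKM this ratio was 2.03 and 2.03. Cish over Socs3, by contrast, was 3.19 and 3.13 with DMSO against 1.43 and 1.36 with MAPK13-inhibitors, and Socs1 over Socs3 was 0.773 and 0.798 against 0.372 and 0.327. The former was thus 2.27-fold lower with MAPK13-inhibitors in the count table but only 1.07-fold lower in the replicate 1 pair, at 6.92 and 6.47. Pias1 over Ptpn2 was higher with the inhibitor in each pair, at 0.665 and 0.636 against 1.08 and 1.28 in counts, and at 0.197 against 0.309 in FPKM. No test was run on these ratios.

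Compared per kilobase of the longest annotated transcript, the family had a different leading gene in the 2 groups. This order depends on the length chosen, which was 4697 bp for Cish and 2552 bp for Socs3. Without division by length, Cish also led Socs3 with MAPK13-inhibitors, at means of 150 and 108 CPM. In CPM per kilobase of the longest transcript, DMSO libraries averaged 83.7 ± 3.13 (SD, n = 2) for Cish, 48.8 ± 2.54 for Socs3, 33.6 ± 2.50 for Socs1 and 29.0 ± 0.07 for Ptpn2. Socs7 (10.9), Pias1 (9.04), Socs4 (7.53), Socs2 (7.5), Socs5 (4.37) and Socs6 (3.05) followed, of which Socs4 and Socs2 did not differ beyond their spread. With MAPK13-inhibitors, Socs3 came first at 42.4 ± 7.46 and Cish next at 31.9 ± 4.55, followed by Ptpn2 at 22.0 ± 2.02. There the libraries of Socs1 and Pias1 overlapped, as did those of Socs4 and Socs7 and those of Socs5 and Socs6. Cish supplied 41.9% and 42.0% of the summed level of the 8 SOCS family genes with DMSO and 25.4% and 27.0% with MAPK13-inhibitors, while the share of Socs3 went from 24.2% and 24.7% to 32.8% and 36.6%. The sum itself was 194 and 205 CPM per kilobase against 113 and 130. Cish led in both libraries of the replicate 1 pair, with 48.0% and 44.7% of 303 and 359 FPKM, and Socs3 held 6.94% and 6.91%. Socs2 held 13.4% and 17.9% of FPKM there but 3.48% to 4.56% in the count table. The transcript lengths behind the FPKM were not given in the sources used here.

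The genes lie on 7 chromosomes of the GRCm38 (mm10) assembly, and each is annotated as protein coding in GENCODE M21. Cish lies at chr9:107296026-107302784 on the plus strand and Pias1 at chr9:62878368-62987924 on the minus strand. Socs1 lies at chr16:10782240-10785536, Socs2 at chr10:95385362-95417180 and Socs3 at chr11:117966079-117970047, all on the minus strand. Socs4 lies at chr14:47276931-47296102, Socs5 at chr17:87107679-87137839 and Socs7 at chr11:97362551-97398542, all on the plus strand. Socs6 (chr18:88665224-88927481) and Ptpn2 (chr18:67665511-67724595) share a chromosome and the minus strand. Apart from the antisense overlap of Cish, no other gene shared exon sequence with any of the 10.

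Most of the cytokine genes upstream of these brakes fell in the count table. Of 15 whose products signal through STATs, 12 were lower and 1 was higher, beside 32.3% and 31.5% of all genes, with a median log2 change of -1.41 beside 0.01 for all genes. Il2, the main T cell growth factor and an inducer of Cish, measured 46.3 and 56.8 CPM with DMSO and 11.9 and 17.9 CPM with MAPK13-inhibitors (log2 change -1.80, adjusted p = 6.18e-06). The replicate 1 pair went the opposite way, from 6.04 to 71.1 FPKM, and the median log2 ratio of the 15 genes in that pair was 0.99. Il15, named after its values were seen, was the gene that rose, by 2.87 (adjusted p = 8.47e-07; replicate 1 log2 ratio 1.60). Il4, which drives type 2 helper cells, fell by 4.72 and Il6, the inflammatory ligand of gp130, fell by 3.17, and both were also lower in the replicate 1 pair, at -1.09 and -0.62. Ifng, which encodes the type 1 helper cell cytokine interferon-gamma, fell by 1.03 (adjusted p = 0.00188) but its replicate 1 log2 ratio was 2.43. Il21, a product of follicular helper cells, fell by 0.41 (adjusted p = 0.00608) against a replicate 1 log2 ratio of 0.69, and single libraries moved its change to -0.23 (without MAPK13-inhibitors replicate 2) and -0.62 (without MAPK13-inhibitors replicate 3). Il10, an anti-inflammatory cytokine, did not pass the test at -0.23 (adjusted p = 0.126, replicate 1 log2 ratio 0.75). Its change was -0.14 without DMSO replicate 3, -0.33 without DMSO replicate 2 and -0.11 under library totals.

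Of 21 receptor genes for such cytokines, 10 were lower and 5 higher, beside 32.3% and 31.5% of all genes. Their median log2 change was -0.19, or -0.06 under library totals. Without either DMSO library fewer of them were called higher, as among all genes. For replicate 1, the median log2 ratio of these genes was 0.16. The 3 chains of the interleukin-2 receptor all fell, with Il2ra at -1.27 (adjusted p = 2e-07), Il2rb at -1.06 (adjusted p = 5.58e-07) and the common gamma chain gene Il2rg at -0.75 (adjusted p = 1.76e-06). In the replicate 1 pair Il2ra was also lower, at -0.69, whereas Il2rb and Il2rg read 0.03 and -0.06. Il12rb2, needed for interleukin-12 responses, fell by 1.14 (replicate 1 log2 ratio 1.18), Il6ra fell by 0.69 (replicate 1 log2 ratio -0.47) and Il4ra fell by 0.45 (replicate 1 log2 ratio 0.12). Il7r, the receptor chain for the survival cytokine interleukin-7, rose by 0.40 (adjusted p = 0.00193), though not past the threshold without DMSO replicate 2 (0.28, adjusted p = 0.0535). Ifnar1 rose by 0.22 (adjusted p = 0.0119) and lost the call without either DMSO library (0.20 and 0.22, adjusted p = 0.154 and 0.11). Il6st (-0.01), Ifngr1 (0.16) and Ifngr2 (-0.18) did not pass the test. Ifngr1 did under library totals (0.28). Without MAPK13-inhibitors replicate 3, Ifngr1 was 0.27 and Ifngr2 was -0.23. Without MAPK13-inhibitors replicate 2, Ifngr1 was 0.026 and Ifngr2 was -0.13. Under library totals the change of Ifnar1 was 0.34. The replicate 1 log2 ratios were 0.31 for Il7r, 0.65 for Ifnar1, 0.68 for Il6st, 0.72 for Ifngr1 and -0.0053 for Ifngr2.

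The JAK and STAT genes themselves split, with 5 of 11 lower and 5 higher, beside 32.3% and 31.5% of all genes, a replicate 1 median log2 ratio of 0.31, and a median log2 change of -0.04 that became 0.08 under library totals. Single libraries moved this median to -0.07 (without DMSO replicate 3), 0.014 (without MAPK13-inhibitors replicate 2) and -0.10 (without MAPK13-inhibitors replicate 3). Jak3, the kinase bound to the common gamma chain, fell by 0.95 (adjusted p = 8.08e-07), Jak2 by 0.77 and Tyk2 by 0.65, while Jak1 rose by 0.59 (adjusted p = 1.37e-05). Stat6, which serves interleukin-4, fell by 0.71, and Stat5a, which serves interleukin-2, fell by 0.30 (adjusted p = 0.00826), the latter with -0.18 (adjusted p = 0.0653) under library totals. The change of Stat5a was -0.16 without MAPK13-inhibitors replicate 2 and -0.47 without MAPK13-inhibitors replicate 3. Its close relative Stat5b did not pass the test, at -0.04 (adjusted p = 0.545), and its change was -0.10 without MAPK13-inhibitors replicate 3. Stat4, which serves interleukin-12, rose by 0.74 and Stat3 by 0.33. In the replicate 1 pair Stat4, Stat3 and Jak1 were likewise higher (1.76, 0.37 and 0.31), but Stat5a read 0.95. The other JAK and STAT genes named read 0.14 (Jak3), -0.01 (Jak2), 0.85 (Tyk2), 0.23 (Stat6) and 0.045 (Stat5b) there.

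**Figure D2:**
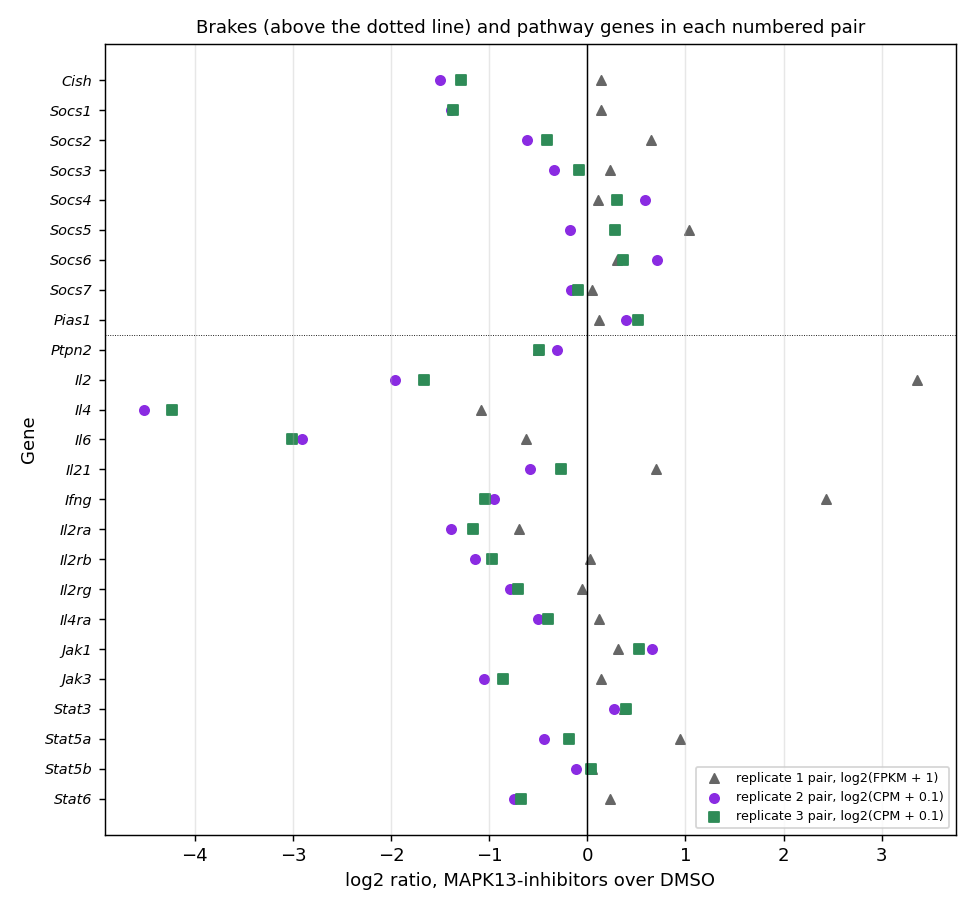
Log2 ratio of MAPK13-inhibitors over DMSO for the brake genes and for pathway genes in each replicate pair, where each point is 1 pair, as log2(FPKM + 1) for replicate 1 and log2(CPM + 0.1) for replicates 2 and 3. Cish, Socs1 and Socs2 lie below 0 in the count table pairs and above 0 in the replicate 1 pair, while Ptpn2 lies below 0 in all 3.

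Among 12 other genes known to respond to STAT5, which included Il2ra, 10 were lower and 1 higher, beside 32.3% and 31.5% of all genes, with a median log2 change of -0.99 in the count table and a median log2 ratio of 0.32 in the replicate 1 pair. The gene that rose was the survival gene Bcl2l1, named after its values were seen, at 0.19 (adjusted p = 0.00923, replicate 1 log2 ratio 0.47). Without either DMSO library this call was lost, and higher calls were also fewer among all genes. Bcl2, a relative of Bcl2l1, fell by 1.46 (replicate 1 log2 ratio -1.09), the kinase gene Pim1 by 1.25 (replicate 1 log2 ratio 0.22) and the growth regulator Myc by 1.00 (replicate 1 log2 ratio 0.42). Irf1, an interferon-induced transcription factor gene from outside these 12, did not pass the test at -0.07 (adjusted p = 0.224; replicate 1 log2 ratio -0.43).

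Of 13 further brakes on cytokine signals, 5 were lower and 5 higher, beside 32.3% and 31.5% of all genes. The higher calls numbered 3 without DMSO replicate 2, with a median of -0.011, and 2 without DMSO replicate 3, with a median of -0.09. That median was -0.06 without MAPK13-inhibitors replicate 2 and -0.024 without MAPK13-inhibitors replicate 3. With all 4 libraries these genes had a median of -0.04 that became 0.09 under library totals, and a replicate 1 median log2 ratio of 0.15. Ptpn1, a phosphatase closely related to Ptpn2, fell by 0.42 (adjusted p = 8.11e-05), and Pias4, a relative of Pias1, fell by 0.44 (adjusted p = 0.000441), each opposite to its replicate 1 log2 ratio of 0.43 and 0.18. Usp18, which blocks the type I interferon receptor, fell by 0.67 (adjusted p = 0.00592; replicate 1 log2 ratio 0.83). Ptpn11, which encodes the phosphatase SHP-2, rose by 0.36, the adaptor gene Sh2b3 by 0.39 and the ubiquitin ligase gene Cblb by 0.25, and all 3 were higher in the replicate 1 pair (0.15, 0.17 and 0.052). The rise of Cblb lost the call without DMSO replicate 3 (0.19, adjusted p = 0.131) and was 0.38 under library totals. Pias3 (-0.22) and Ptpn6 (0.07), which encodes SHP-1, did not pass the test. Ptpn6 did under library totals (0.19, adjusted p = 0.00696) and was 0.034 without MAPK13-inhibitors replicate 3. Pias3 was -0.29 without that library and -0.09 under library totals. Their replicate 1 log2 ratios were 0.45 and -0.12.

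The SOCS box works through elongins B and C and the scaffold cullin-5, which act with further ligase partners. Of 8 such genes, 6 were lower and 1 higher, beside 32.3% and 31.5% of all genes, with a median of -0.27 and a replicate 1 median log2 ratio of -0.09. Under library totals 3 were called lower, beside 4302 of all 16269 genes, with a median of -0.14. Without DMSO replicate 2 the higher call was lost, and higher calls were also fewer among all genes. Elob, for elongin B, fell by 0.50 (adjusted p = 4.57e-05). Eloc fell by 0.28 (adjusted p = 0.00815) and Cul5 by 0.26 (adjusted p = 0.0101), and under library totals neither passed, at -0.15 (adjusted p = 0.106) and -0.14 (adjusted p = 0.137). Eloc also missed the threshold without DMSO replicate 3 (-0.27, adjusted p = 0.0683) and Cul5 without DMSO replicate 2 (-0.25, adjusted p = 0.0993). Rnf7, the RING partner of cullin-5, rose by 0.27 (adjusted p = 0.00609), but not past the threshold without DMSO replicate 2 (0.20, adjusted p = 0.138). The replicate 1 log2 ratios were -0.18 for Elob, -0.32 for Eloc, -0.17 for Cul5 and 0.065 for Rnf7. Of 18 other genes for SOCS box proteins, 14 were tested, 4 were lower and 3 higher, beside 32.3% and 31.5% of all genes, with a median of 0.10 and a replicate 1 median log2 ratio of 0.31. Under library totals 6 were called higher, beside 6176 of all 16269 genes, with a median of 0.23. Without DMSO replicate 3 the median was 0.06. More of these genes were then called higher, although higher calls were fewer among all genes. Wsb2, one of these, fell by 0.75 against a replicate 1 log2 ratio of 0.40. Wsb1 read 0.11 (adjusted p = 0.122, replicate 1 log2 ratio -0.09). It was called under library totals (0.24) and with at least 10 counts required in every library (0.16). Without MAPK13-inhibitors replicate 2 its change was 0.12. Without DMSO replicate 3 its change was 0.059.

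The gene for the targeted kinase was itself low. Mapk13 had 79 and 74 counts with DMSO and 21 and 51 counts with MAPK13-inhibitors, a log2 change of -1.47 (adjusted p = 0.0049), and its replicate 1 log2 ratio was 1.84. Single libraries moved the change to -0.94 (without MAPK13-inhibitors replicate 2) and -2.29 (without MAPK13-inhibitors replicate 3). Tcf7, a transcription factor gene of naive and stem-like T cells, rose by 0.29 (adjusted p = 0.00855) and was also higher in the replicate 1 pair, at 0.30, and its change was 0.15 without MAPK13-inhibitors replicate 3.

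The promoters were searched for TTCNNNGAA, the palindromic core bound by STAT factors, which reads alike on both strands. RefSeq promoters of GRCm38.p6, from 250 bases before to 50 after the start, were matched for 5 of the 10 genes (Cish, Socs1, Socs3, Socs4 and Pias1). The windows of Cish (chr9:107296409-107296708), Socs3 (chr11:117969317-117969616) and Pias1 (chr9:62980830-62981129) lie wholly inside the GENCODE gene spans. They therefore do not cover the outermost GENCODE starts of these genes. The motif occurred in 2726 of 32851 promoters (8.3%) and at least 2 times in 150 (0.457%). Cish held 2 matches, which began at positions 1 and 12 relative to the start (the first of the 50 bases is 1), Socs3 held 1, which began at position -154, and Socs1, Socs4 and Pias1 held none in this window. A wider spaced form with 1 more free letter between TTC and GAA, present in 6.95% of promoters, was in none of the 5. The stretches of 30 bases around the matches are shown because they hold the letters in question, with matches in capitals, from chr9:107296654-107296683 (plus strand) for Cish and chr11:117969501-117969530 (minus strand) for Socs3.
Cish: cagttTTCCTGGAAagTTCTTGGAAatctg
Socs3: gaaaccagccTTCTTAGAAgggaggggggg
A match describes letters only.

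The genes closest in pattern were found by the Euclidean distance of centred log2 CPM over the 4 libraries of the count table, among 13377 genes. For Cish these were Ints6 (distance 0.0244), Wdr54 (0.0265) and Cyc1 (0.0352), and for Socs1 they were Sgf29 (0.0255), Ly6d (0.0478) and Tor2a (0.0487). For Socs3 they were Qpctl (0.0283), Smtn (0.0332) and Tead3 (0.0413). The neighbours of Cish read 0.02, -0.48 and -0.27 in the replicate 1 pair, in the order given, beside 0.14 for Cish itself. Those of Socs1 read -1.13, -0.38 and -0.27 there, beside 0.14 for Socs1, and those of Socs3 read 1.65, 0.37 and 0.71, beside 0.23 for Socs3.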

How the data were processed

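RNA-seq libraries of CD4+ T cells from mouse spleen were used, 3 each for DMSO and MAPK13-inhibitors. For replicates 2 and 3 the authors deposited raw gene counts in 1 table; the submitters' processing notes name fastp 0.21.0, HISAT2 2.1.0, StringTie 2.1.5, DESeq2 1.30.1 and mm10. For the pair whose labels carry no number, called replicate 1 here, the authors deposited values read as FPKM, a unit inferred from the values. These values were deposited under the names C4 and M4. For this pair the notes name FastQC, HISAT2 and GRCm38 (mm10). Its quantifier and annotation were not given in the sources used here.

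Counts were analysed with edgeR 4.0.16 in R 4.3.3 (filterByExpr with a minimum count of 10 and a minimum total of 15, TMM factors 0.960, 0.955, 1.05 and 1.04, quasi-likelihood test of 2 against 2 libraries without covariates, Benjamini-Hochberg adjustment over 16269 genes, threshold 0.05). The procedure was tested on simulated data. CPM were TMM-scaled, except marker sums, which used library totals alone. Relative to library totals alone, a level of 3 counts corresponded to 0.0886 to 0.112 CPM. Between 19159 and 21575 genes were detected per library. The common biological coefficient of variation was 0.0659. Replicate 1 was given as log2 ratios with a pseudocount of 1, without a test, and such ratios understate changes of low genes. Intervals are 95% intervals of the fit.

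All 10 brake genes, 46 pathway genes of a written list and 3 nearest genes each for Cish, Socs1 and Socs3 (mean of at least 1 CPM) were named, with marker genes of each list. The brake genes and lists were chosen with earlier results of these data known. Lists are described by counts and medians. Alternatives were other scalings, filters and thresholds, DESeq2 1.42.0, the replicate number as a block, each library left out, and a pseudocount of 0.1. Lengths and coordinates came from GENCODE M21 and promoters from RefSeq. Protein sequences were not analysed here, and some listed items are not reported here.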

Additional observations from a re-analysis of the deposited data

Results flagged for a closer look

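For the genes named here the replicate 1 pair moved opposite to both numbered pairs of the count table; these differences between pairs were not tested, and the library kit, the unit and the pair cannot be told apart. Among the brakes, the log2 ratio of replicate 1 was 0.14 for Cish, 0.14 for Socs1 and 0.65 for Socs2, each of which fell in the count table. Among the further brakes and SOCS box genes it was 0.18 for Pias4, 0.43 for Ptpn1, 0.83 for Usp18 and 0.40 for Wsb2, against a fall of each in the count table. For the JAK and STAT genes it was 0.14 for Jak3, 0.85 for Tyk2, 0.95 for Stat5a and 0.23 for Stat6, all lower in the count table. The cytokine genes gave 3.36 for Il2, 0.69 for Il21 and 2.43 for Ifng, and the receptor genes 0.029 for Il2rb, 0.12 for Il4ra and 1.18 for Il12rb2, each lower in the count table. The same held for Pim1 at 0.22, Myc at 0.42 and Mapk13 at 1.84. B cell markers equalled 65.0% to 136% of T cell markers in the count table and 3.80% to 5.05% in the replicate 1 pair, and their part in these differences was not tested.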

How the results depend on the processing

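The 7 called brake genes kept direction and call under each of 10 alternatives (70 of 70 values): RLE size factors, library totals, both filters, DESeq2, the replicate block and each library left out, where the lone sample of an arm is assumed to vary like the other group. A chi-square of the counts between the 2 libraries of a group averaged 9.60 per gene for MAPK13-inhibitors and 3.08 for DMSO. This assumption is therefore doubtful, and calls gained or lost with a library left out are uncertain. Cish ran from -1.55 to -1.25 and Socs1 from -1.48 to -1.26. Socs3 was called lower without a filter (-0.20, adjusted p = 0.0391) and with the replicate block (-0.21, adjusted p = 0.00457), and ran from -0.40 to -0.034 with single libraries left out. Socs7 ran from -0.16 to -0.11 in the same way. Under library totals Socs3 was -0.079 (adjusted p = 0.498) and Socs7 was -0.0058 (adjusted p = 0.945). The causes were not tested. The replicate numbers shared no deviation over genes (r = -0.01, 2 pairs), and the replicate block called 10645 genes in place of 10374 and changed no other brake gene's call. With an absolute log2 change over 0.5 also required, 1 brake gene was called higher in place of 3, 3 were called lower in place of 4, and 7256 of all genes were called. The next alternatives were chosen after seeing the data. Requiring the same direction in replicate 1 left 6714 genes called and 1 brake gene called lower. Scaling to the T cell markers moved all genes alike (median 0.73 in place of 0.01), and with this common offset Socs2 read 0.21, Socs3 0.51, Socs5 0.77, Socs7 0.59 and Ptpn2 0.32, which says nothing about these genes in particular. Over the same 10 alternatives, the 37 called pathway genes kept direction and call in 360 of 370 values and lost the call in 10, with 0 changes of sign. The 9 that were not called gained a call in 9 of 90 values, and the sign changed in 10 values of Stat5b, Irf1 and Il6st. The sign of Socs5, also not called, changed as well (-0.08 to 0.18).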
